A study of Mus musculus with 18 samples.

Results

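Afadin (*Afdn*) and 6 other cytoplasmic proteins that build cell junctions or set cell polarity were followed through reprogramming: *Tjp1*, *Ctnna1*, *Ctnnb1*, *Magi1*, *Dlg1*, and *Pard3*. The genes were taken by name, and all 7 were listed among the 9435 genes of the knockdown table and the 9472 genes of the overexpression table. Their splicing events were all those assigned to these gene names, 598 of 661941 events. The cells were primary mouse embryonic fibroblasts (MEFs) of the genotype Collagen-OKSM, M2rtta+, in which doxycycline switches on OCT4, SOX2, KLF4, and MYC. Every group carried these alleles, the non-infected (NI) cells included. The knockdown dataset held 6 groups of 2 libraries. The NI group was taken at day 0. The others were taken at day 12 of doxycycline and carried lentiviral shRNAs: a scrambled control (shSCR), shCPSF3#1 or shCPSF3#2 against *Cpsf3*, and shUL1#1 or shUL1#2 against *Hnrnpul1*. The overexpression dataset held 3 groups of 2 libraries: day 0 NI cells, and day 12 cells whose retrovirus was empty (Empty) or carried T7-tagged *Tia1* (T7-TIA1). Infected cells were sorted for GFP and then grown on irradiated feeder MEFs, so that each day 12 library came from a mixed culture and not from a clone. The share of feeder RNA was not measured. Fewer cells of a type and less RNA per cell cannot be told apart in such bulk libraries.

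Fibroblasts reprogrammed by these factors pass through a mesenchymal-to-epithelial transition, in which cell-cell junctions are rebuilt. At adherens junctions, nectins and cadherins reach the actin cytoskeleton through adaptors. Afadin binds nectins and actin, β-catenin (*Ctnnb1*) binds the cadherin tail, and α-catenin (*Ctnna1*) links β-catenin to actin. ZO-1 (*Tjp1*) is the scaffold of tight junctions, MAGI1 and DLG1 are membrane-associated scaffolds with PDZ domains, and PAR3 (*Pard3*) places the PAR polarity complex at junctions. β-Catenin is also the transcriptional effector of canonical Wnt signaling. Several of these scaffolds have alternative exons that are used to different degrees in epithelial and mesenchymal cells.

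A library had 229815194 to 266010608 reads behind its covered events, a read being counted in each event it informs. The covered events numbered 398925 to 409729 in the NI libraries and 425826 to 449204 at day 12. The targeted genes differed from their controls in the labelled direction. *Cpsf3* stood at 86.7 and 118 scaled CPM in shSCR and at 38.6, 50, 42.4, and 77.1 in the shCPSF3 libraries. The last of these, shCPSF3#2 replicate 2, lay within the range of the shUL1 libraries (74.2 to 88.5), in which *Cpsf3* was not targeted. *Hnrnpul1* stood at 156 and 185 in shSCR and at 38.7 to 85.8 in the 4 shUL1 libraries. *Tia1* stood at 85.6 and 77.0 in Empty and at 613 and 469 in T7-TIA1. One label field gives day 0 for shUL1#2 and day 12 for the NI cells of the overexpression dataset, against the titles, whose days were used. Of 14 fibroblast markers, 13 were listed in both tables, with summed levels of 15806 to 40661 scaled CPM in the NI libraries.

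The stretches of coding sequence that differ between the isoforms below are printed first, because the splicing results turn on them. Each is a run of mRNA, 5′ to 3′, read from an annotated GENCODE M21 transcript (GRCm38, mm10) at the coordinates of the event. Capitals mark the alternative stretch, and the lower-case letters on either side are 24 bases of the adjoining exon sequence. The *Afdn* stretch is a 21-nucleotide exon at chr17:13848355-13848375 on the + strand. It is exon 16 of the 34 exons of Afdn-210, and 1 of the 5 annotated coding transcripts that span it includes it.
Afdn with the 21-nt exon: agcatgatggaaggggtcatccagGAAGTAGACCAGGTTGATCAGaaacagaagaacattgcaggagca
Afdn without it: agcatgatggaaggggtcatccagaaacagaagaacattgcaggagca

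The *Pard3* stretch is a 45-nt exon at chr8:127410729-127410773 on the + strand, exon 18 of the 21 of Pard3-202. *Dlg1* has a 45-nt extension at a 5′ splice site, chr16:31796966-31797010 on the + strand. *Magi1* lies on the − strand and has an 84-nt exon at chr6:93704277-93704360. It also has a set of 3 alternative 3′ splice sites, at which the exon starting at the innermost site can be lengthened by 33 or 36 nt, from chr6:93694176 up to chr6:93694211. They are shown because the comparisons of *Pard3*, *Dlg1*, and *Magi1* below turn on them.
Pard3 with the 45-nt exon: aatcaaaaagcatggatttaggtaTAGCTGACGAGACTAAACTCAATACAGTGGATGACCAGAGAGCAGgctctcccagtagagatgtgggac
Dlg1 with the 45-nt extension: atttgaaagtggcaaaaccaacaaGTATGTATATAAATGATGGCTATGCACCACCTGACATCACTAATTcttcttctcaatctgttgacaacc
Magi1 with the 84-nt exon: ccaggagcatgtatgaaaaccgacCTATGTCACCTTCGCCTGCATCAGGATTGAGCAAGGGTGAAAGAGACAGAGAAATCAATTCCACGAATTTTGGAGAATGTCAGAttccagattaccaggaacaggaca
Magi1 with the 36-nt extension: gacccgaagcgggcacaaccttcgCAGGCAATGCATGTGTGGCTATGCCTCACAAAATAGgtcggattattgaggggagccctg
Magi1 with the 33-nt extension: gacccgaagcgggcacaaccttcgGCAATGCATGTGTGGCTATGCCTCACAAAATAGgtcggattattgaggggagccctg

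All of these stretches lie within annotated coding sequence, have a length divisible by 3, and hold no stop codon in the annotated frame. A further alternative exon, of *Tjp1*, spans 240 nt at chr7:65314093-65314332 on the − strand (exon 20 of the 28 of Tjp1-202). It too is coding and in frame.

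Of the 598 events, 555 had at least 10 reads in every knockdown library and 556 in every overexpression library. Few of the covered events varied. In the knockdown dataset, 41 had a group mean between 10 and 90 PSI (percent spliced in) in at least 1 group, and 15 spanned at least 10 PSI between group means. Of these 15, 9 belonged to *Magi1*, 3 to *Dlg1*, 2 to *Afdn*, and 1 to *Pard3*. *Ctnna1* and *Ctnnb1* had no event between 10 and 90 PSI in either dataset.

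Events were compared by ∆PSI and by a *limma* test on the log2 ratio of inclusion to exclusion reads, adjusted by Benjamini-Hochberg over all events tested in a dataset. From day 0 to day 12 in shSCR, 5 of 455 tested events passed an adjusted p of 0.05, 4 up and 1 down. That is 1.10% of them, against 3.13% of all events tested. In Empty, 1 of 421 passed, against 0.0274% of all events. For CPSF3 knockdown, the mean of both shRNAs against shSCR, 3 of 455 passed, all down, against 0.814% of all events. For hnRNP UL1 knockdown (UL1) 1 of 455 passed, against 0.235% of all events. None passed between CPSF3 and UL1, where 0% of all events passed. There 31 of 455 (6.81%) had an unadjusted p under 0.05, against 6.96% of all events. None passed between T7-TIA1 and Empty, where 0.00329% of all events passed. There 24 of 421 (5.7%) had an unadjusted p under 0.05, against 6.27% of all events.

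A second set of criteria involved no test: a ∆PSI of at least 10 and a gap of at least 5 PSI between the nearest libraries of the groups. By these, 5 of 555 covered events differed between shSCR and NI, against 1.18% of all covered events. For Empty and NI there were 4 of 556, against 0.658%. For CPSF3 there was 1 of 555, against 0.396%, and for UL1 there were 2, against 0.333%. For T7-TIA1 there was 1 of 556, against 0.272%. The shares of the members were 0.901%, 0.719%, 0.180%, 0.360%, and 0.180%, in the same order.

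The *Afdn* 21-nt exon had the largest ∆PSI of all named events. It was mostly included at day 0 and mostly skipped at day 12 in both controls. In the knockdown dataset the PSI was 79.7 and 84.9 in NI and 29.9 and 14.8 in shSCR. It was 85.1 and 80.3 in the other NI libraries and 23.4 and 29.6 in Empty. No day 12 control library came near a day 0 library.

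The fall was 59.9 PSI in shSCR (log2 effect −4.04 ± 0.86 SE, adjusted p = 0.0392 by *limma*) and 56.2 PSI in Empty (−3.71 ± 0.29, adjusted p = 0.0199). The difference between these 2 falls, fitted over all 18 libraries, was −0.32 ± 1.13 on the log2 scale (adjusted p = 0.965). For this difference 0 of 487 member events passed, against 0.00128% of all events, and 34 (6.98%) had an unadjusted p under 0.05, against 8.84% of all events. The exon was covered by 160 to 586 reads per library. The call in Empty was lost without any 1 of the 6 libraries of that fit (adjusted p = 0.192 to 0.607), and that in shSCR without either NI or either shSCR library (0.0952 to 0.172) or either shCPSF3#1 library (0.0546 and 0.054).

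With the knockdowns, exon inclusion at day 12 was higher on average but varied widely between replicates. The PSI was 77.5 and 59.5 in shCPSF3#1 and 57.3 and 18.6 in shCPSF3#2. It was 50.8 and 25.1 in shUL1#1 and 57.8 and 33.7 in shUL1#2. Both shCPSF3#1 libraries and both shUL1#2 libraries lay above the 2 shSCR libraries, whereas shCPSF3#2 and shUL1#1 each overlapped them.

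Against shSCR, the CPSF3 mean was higher by 30.8 PSI (log2 effect 2.01 ± 0.74, adjusted p = 0.220) and the UL1 mean by 19.5 PSI (1.31 ± 0.72, adjusted p = 0.472). Neither passed the test. Over leave-one-out fits the log2 effect ranged from 1.35 to 2.67 for CPSF3 and from 0.68 to 1.97 for UL1. T7-TIA1, at 35.4 and 27.0, overlapped Empty (∆PSI 4.69, adjusted p = 0.814). In descending order the group means were 82.7 ± 3.36 and 82.3 ± 3.7 PSI (SD, n = 2) in NI, 68.5 ± 12.7 in shCPSF3#1, and 45.8 ± 17.1 in shUL1#2. Then followed 38.0 ± 18.1 in shUL1#1, 38.0 ± 27.4 in shCPSF3#2, 31.2 ± 5.9 in T7-TIA1, 26.5 ± 4.35 in Empty, and 22.4 ± 10.7 in shSCR. Only the steps below NI and below shCPSF3#1 separated neighbors without overlap of libraries.

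In each of the 5 day 12 groups of the knockdown dataset, replicate 2 had the lower exon PSI and the higher *Afdn* level. The PSI of replicate 2 minus that of replicate 1 was −15.1 in shSCR, −18 in shCPSF3#1, −38.7 in shCPSF3#2, −25.6 in shUL1#1, and −24.1 in shUL1#2. Within each replicate number, all 4 knockdown libraries lay above shSCR: at 50.8 to 77.5 against 29.9 PSI in replicate 1, and at 18.6 to 59.5 against 14.8 in replicate 2. With a replicate block neither knockdown passed (adjusted p = 0.0747 for CPSF3 and 0.228 for UL1). The gap between replicates was 6.15 in Empty and −8.35 in T7-TIA1.

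**Figure D1:**
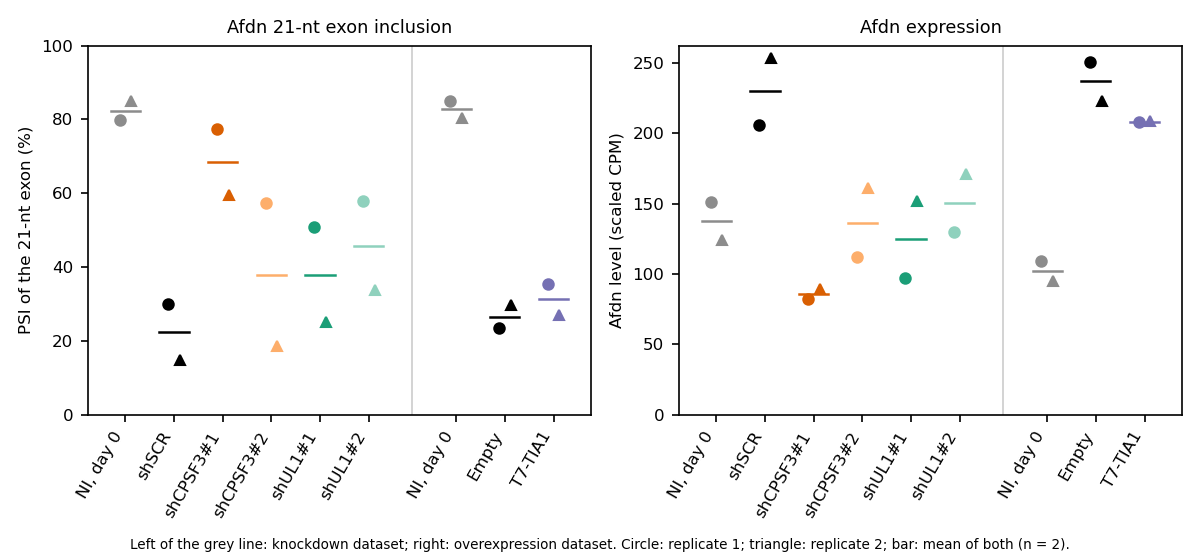
Left, PSI of the *Afdn* 21-nt exon in percent; right, *Afdn* level in scaled CPM; each point is 1 library (circle, replicate 1; triangle, replicate 2) and each bar the mean of 2. The exon lies near 80 PSI in all NI libraries and between 14.8 and 35.4 PSI in shSCR, Empty, and T7-TIA1, with the knockdown libraries spread from 18.6 to 77.5.

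Gene levels are given in scaled CPM and tested with *limma* on log2(scaled CPM + 1) over all listed genes. From day 0 to day 12 in shSCR, 3 of the 7 genes passed, 1 up and 2 down, against 44.5% of all listed genes. In Empty 5 of 7 passed, 3 up and 2 down, against 46.5%. For CPSF3 2 of 7 passed, both down, against 26.1%. For UL1 0 of 7 passed, against 10.5%, with 2 at an unadjusted p under 0.05, as 2713 of the 9435 genes had. Between CPSF3 and UL1 0 of 7 passed, against 0.0424%, with 2 at an unadjusted p under 0.05, as 1207 of the 9435 genes had. Between T7-TIA1 and Empty 0 of 7 passed, against 0%, and no member had an unadjusted p under 0.05, as 393 of all genes did. *Tia1* itself did not pass there, although it stood at 85.6 and 77.0 scaled CPM in Empty and at 613 and 469 in T7-TIA1. The test therefore cannot decide whether a member gene changed with T7-TIA1. The listed genes are those that the authors kept for a minimum level and a minimum coefficient of variation across libraries.

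*Afdn* rose towards day 12 in the controls and was lower in the knockdowns. Its level was 151 and 124 scaled CPM in NI and 206 and 254 in shSCR. The second dataset gave 109 and 95.1 in NI, 251 and 223 in Empty, and 208 and 209 in T7-TIA1. The control libraries of day 12 all lay above those of day 0.

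The rise in Empty was 2.31-fold (log2 fold change 1.21 ± 0.12 SE, adjusted p = 0.00168). That in shSCR was 1.67-fold (0.74 ± 0.27) and did not pass (adjusted p = 0.0521). It passed without either shCPSF3#2 library (0.0433) or either shUL1#1 library (0.035), which changes the pooled spread and not the value. In the knockdowns the level was 82.1 and 89.6 in shCPSF3#1, 112 and 161 in shCPSF3#2, 97.4 and 152 in shUL1#1, and 130 and 171 in shUL1#2. All 8 libraries lay below both shSCR libraries.

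The decrease with CPSF3 was 2.12-fold (log2 fold change −1.09 ± 0.23, adjusted p = 0.0133). Without shSCR replicate 2 it was −0.93, and the call was lost (adjusted p = 0.113). The difference with UL1 was −0.76 ± 0.23 (adjusted p = 0.0719). The UL1 difference passed in a fit with a replicate block (adjusted p = 0.0181), as it did without shUL1#1 replicate 2 (0.0466). CPSF3 and UL1 did not differ by the test (−0.32 ± 0.19, adjusted p = 0.548).

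The summed level of the 13 listed fibroblast markers was lower in the day 12 controls than in NI, where *Afdn* was higher, and higher in the knockdown libraries than in shSCR, where *Afdn* was lower. It was 15806 and 19276 scaled CPM in NI, 7019 and 6914 in shSCR, 17147 to 26595 in the shCPSF3 libraries, and 14151 to 30287 in the shUL1 libraries. The second dataset gave 17654 and 40661 in NI, 6878 and 7637 in Empty, and 5615 and 5999 in T7-TIA1. Among the 13 markers, 6 fell from NI to shSCR and 9 fell from NI to Empty, where 44.5% and 46.5% of all listed genes passed. With CPSF3 9 of 13 rose and with UL1 6 of 13 rose, where 26.1% and 10.5% of all listed genes passed. *Col1a1*, a main collagen of fibroblasts, was lower by 2.30 in log2 fold change in shSCR than in NI (−2.30 ± 0.31) and rose with CPSF3 (2.01 ± 0.27, adjusted p = 0.00322) and UL1 (1.55 ± 0.27, adjusted p = 0.0149). *Col3a1*, another collagen of the list, did not fall in shSCR (0.18 ± 0.47, adjusted p = 0.78). It rose with CPSF3 (2.54 ± 0.41, adjusted p = 0.00563) and UL1 (2.48 ± 0.41, adjusted p = 0.0128). Its group mean was 1030 scaled CPM in NI, 1140 in shSCR, and 4570 to 9610 in the knockdown groups. The higher sums of the knockdowns thus rest in part on *Col3a1* levels above those of NI.

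Of 14 epithelial markers, 4 were in the knockdown table (*Krt8*, *Krt18*, *Krt19*, and *Spint2*). Their sum was 67 and 52 in NI, 711 and 477 in shSCR, 69 to 278 in the shCPSF3 libraries, and 133 to 302 in the shUL1 libraries. All 4 fell with CPSF3, and 0 of 4 passed with UL1, against 26.1% and 10.5% of all listed genes. The other 10, *Epcam* and *Cdh1* among them, were not in the filtered tables and were not analysed here. Of 14 pluripotency markers only *Klf4* and *Tet1* were listed, and *Klf4* reads may include the transgene. Their sum was 111 and 86 in NI, 272 and 525 in shSCR, and 159 to 390 in the 8 knockdown libraries. The part of cell makeup in the *Afdn* results was not tested.

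**Figure D2:**
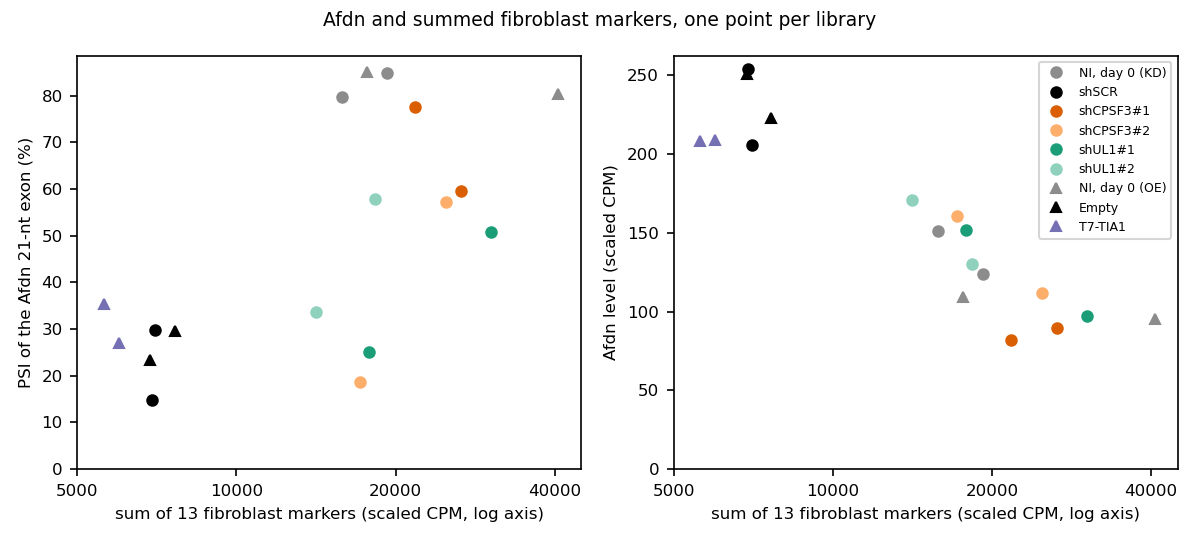
Each point is 1 library; the x axis gives the sum of 13 fibroblast markers (scaled CPM, log axis) and the y axes give the PSI of the *Afdn* 21-nt exon (left) and the *Afdn* level (right). Circles are the knockdown and triangles the overexpression dataset; the shSCR, Empty, and T7-TIA1 libraries have sums of 5615 to 7637 and *Afdn* levels above 200 scaled CPM, and all other libraries have sums of 14151 or more and *Afdn* levels up to 171.

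ZO-1 (*Tjp1*), the tight junction scaffold, changed in level in the same directions as *Afdn*. Its level was 168 and 152 scaled CPM in NI and 285 and 296 in shSCR. It was 146 and 159 in the other NI libraries, 364 and 367 in Empty, and 303 and 333 in T7-TIA1. In both datasets the day 12 controls lay clear of day 0.

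The rise was 1.82-fold in shSCR (log2 fold change 0.86 ± 0.17, adjusted p = 0.00437) and 2.38-fold in Empty (1.25 ± 0.11, adjusted p = 0.0013). *Tjp1* stood at 195 and 144 in shCPSF3#1, at 256 and 205 in shCPSF3#2, and at 233 to 253 in the shUL1 libraries. These 8 libraries all lay below shSCR. The decrease with CPSF3 was 1.48-fold (−0.57 ± 0.15, adjusted p = 0.0261). This call was lost without shSCR replicate 1 (adjusted p = 0.0747) or replicate 2 (0.148). With UL1 the difference was −0.26 ± 0.15 (adjusted p = 0.283).

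Inclusion of the *Tjp1* 240-nt exon was low throughout. This exon was outside the naming rule and was chosen after its values were seen. Its PSI was 6.07 and 5.06 in NI, 18.4 and 11.6 in shSCR, 7.41 to 13.8 in the shCPSF3 libraries, and 5.73 to 9.56 in the shUL1 libraries. In the overexpression dataset it lay between 5.48 and 9.07 in all 6 libraries. The shSCR libraries were above both NI and all 4 shUL1 libraries.

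The ∆PSI was 9.47 for shSCR against NI (log2 effect 1.52 ± 0.43, adjusted p = 0.0862) and −7.36 for UL1 against shSCR (−1.06 ± 0.34, adjusted p = 0.222). With a replicate block the UL1 difference passed (adjusted p = 0.0331). Over leave-one-out fits its log2 effect ranged from −1.44 to −0.66. In each of the 5 day 12 knockdown groups replicate 1 had the higher PSI. The exon was covered by 464 to 1216 reads.

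PAR3 (*Pard3*), the polarity scaffold, was slightly lower at day 12. Its level was 69.5 and 64.9 scaled CPM in NI and 51.1 and 49.6 in shSCR. It was 63.8 and 66.9 in the other NI libraries, 50.9 and 49.9 in Empty, and 55.0 and 49.8 in T7-TIA1. All day 12 libraries of both datasets lay below all day 0 libraries, the knockdown libraries (52.3 to 59.2) included.

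The log2 fold change was −0.41 ± 0.10 in shSCR (adjusted p = 0.0122) and −0.37 ± 0.10 in Empty (adjusted p = 0.0338). The call in shSCR was lost without NI replicate 1 (adjusted p = 0.0858) or shSCR replicate 2 (0.0521). The call in Empty was lost without either Empty library (0.149 and 0.151) or either T7-TIA1 library (0.0892 and 0.0886). Neither knockdown passed (CPSF3 0.15 ± 0.09, adjusted p = 0.207; UL1 0.18 ± 0.09, adjusted p = 0.216).

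The *Pard3* 45-nt exon was the only named event that met the ∆PSI criteria with T7-TIA1. Its PSI was 54.8 and 56.4 in T7-TIA1, 44.3 and 35.9 in Empty, and 30.4 and 23.0 in NI. The 3 groups did not overlap. Empty exceeded NI by 13.4 PSI (log2 effect 0.86 ± 0.26, adjusted p = 0.256), and T7-TIA1 exceeded Empty by 15.5 PSI (0.90 ± 0.26, adjusted p = 0.790). Neither passed over all events. The event was covered by 129 to 179 reads per library.

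In the knockdown dataset the same exon stood at 25.3 and 23.0 PSI in NI and at 26.9 and 46.0 in shSCR. The groups thus differed mainly through shSCR replicate 2. The shCPSF3 libraries lay between 19.3 and 35.0 PSI and the shUL1 libraries between 20.9 and 35.4. The ∆PSI was 12.3 for shSCR against NI (adjusted p = 0.317) and −11.8 for CPSF3 against shSCR (adjusted p = 0.324).

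MAGI1, a scaffold found at tight and adherens junctions, had the most variable events of the 7 genes. Its level was 30.8 and 27.1 scaled CPM in NI and 26.8 and 37.3 in shSCR, which overlapped. It was 35.4 and 36.7 in the other NI libraries, 51.2 and 52.7 in Empty, and 49.2 and 46.9 in T7-TIA1. *Magi1* rose 1.43-fold in Empty (log2 fold change 0.52 ± 0.10, adjusted p = 0.0101). The call was lost without either Empty library (adjusted p = 0.0743 and 0.0731). The level was 22.1 to 35.4 in the shCPSF3 libraries and 34.5 to 42.4 in the shUL1 libraries. Between CPSF3 and UL1 the difference was −0.42 ± 0.12 (adjusted p = 0.264).

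A 4063-nt *Magi1* intron, at chr6:93769544-93773606, was the member event called in the most comparisons. Its retention was 0 in both NI libraries, 16.3 and 13.6 PSI in shSCR, 0 to 2.44 in the shCPSF3 libraries, and 0.68 to 2.69 in the shUL1 libraries. The shSCR libraries stood apart from all 10 others of that dataset. The second dataset gave 0 and 1.48 in NI, 5.83 and 4.91 in Empty, and 2.55 and 1.24 in T7-TIA1. The values rested on 26 to 90 reads per library, of which 0 to 10 supported retention.

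The log2 effect was 3.03 ± 0.44 for shSCR against NI (adjusted p = 0.0103), −2.23 ± 0.28 for CPSF3 (adjusted p = 0.0142), and −2.55 ± 0.26 for UL1 (adjusted p = 0.0114). These 3 comparisons share the shSCR libraries. Leaving out either NI library ended the call for shSCR against NI (adjusted p = 0.0929 and 0.0781). The CPSF3 call was lost without shSCR replicate 1 (0.0592), shCPSF3#1 replicate 2 (0.0589), or shCPSF3#2 replicate 1 (0.0572). The UL1 call was lost without shSCR replicate 1 (0.0664), either shUL1#1 library (0.0639 and 0.0626), or shUL1#2 replicate 1 (0.0593). Both knockdown calls were also lost without weights (0.0758 and 0.114).

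At the 3 alternative 3′ splice sites of *Magi1*, the form without extra bases was lower in both day 12 controls than in NI. The PSI of the form without extra bases was 69.2 and 67.7 in NI and 50.9 and 36.9 in shSCR. In the other dataset it was 65.2 and 71.9 in NI and 39.3 and 60 in Empty. The fall was 24.5 PSI in shSCR (log2 effect −1.46 ± 0.53, adjusted p = 0.164) and 18.9 PSI in Empty (−1.14 ± 0.41, adjusted p = 0.306). Neither passed the test, and the site was covered by only 22 to 99 reads. Over leave-one-out fits the log2 effect in Empty ranged from −1.71 to −0.53. With only the groups compared, the fall in shSCR passed (adjusted p = 0.0455). The same form was at 63.6 and 77.0 PSI in shCPSF3#1, 72.1 and 44.6 in shCPSF3#2, and 45.2 to 63.7 in the shUL1 libraries. The CPSF3 mean exceeded shSCR by 20.4 PSI (log2 effect 1.2 ± 0.47, adjusted p = 0.247).

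The form with 36 extra bases was higher by 14.0 PSI in shSCR than in NI (adjusted p = 0.157), and the form with 33 extra bases by 13.8 PSI in Empty than in NI (adjusted p = 0.196). The 36-nt form stood at 36.1 and 35.5 PSI in shSCR and at 20.4 to 33.8 in the shCPSF3 libraries. The 2 forms share their inner 33 bases, and their values within a library are not independent.

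The *Magi1* 84-nt exon stood at 20 and 27.3 PSI in NI and at 7.81 and 12.7 in shSCR. The difference of −13.4 PSI (log2 effect −1.29 ± 0.30) narrowly missed the threshold (adjusted p = 0.0511). It passed with a replicate block (0.0192) and with at least 10 reads of each form (0.045), an alternative chosen after seeing the data. The shCPSF3 libraries lay between 10.7 and 14.6 PSI and the shUL1 libraries between 12.1 and 19.7. With overexpression the exon was at 21 and 10.6 in NI, 25.3 and 18 in Empty, and 31.3 and 31.5 in T7-TIA1. There the day 12 controls overlapped day 0, and T7-TIA1 lay above Empty (∆PSI 9.74, adjusted p = 0.790).

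**Figure D3:**
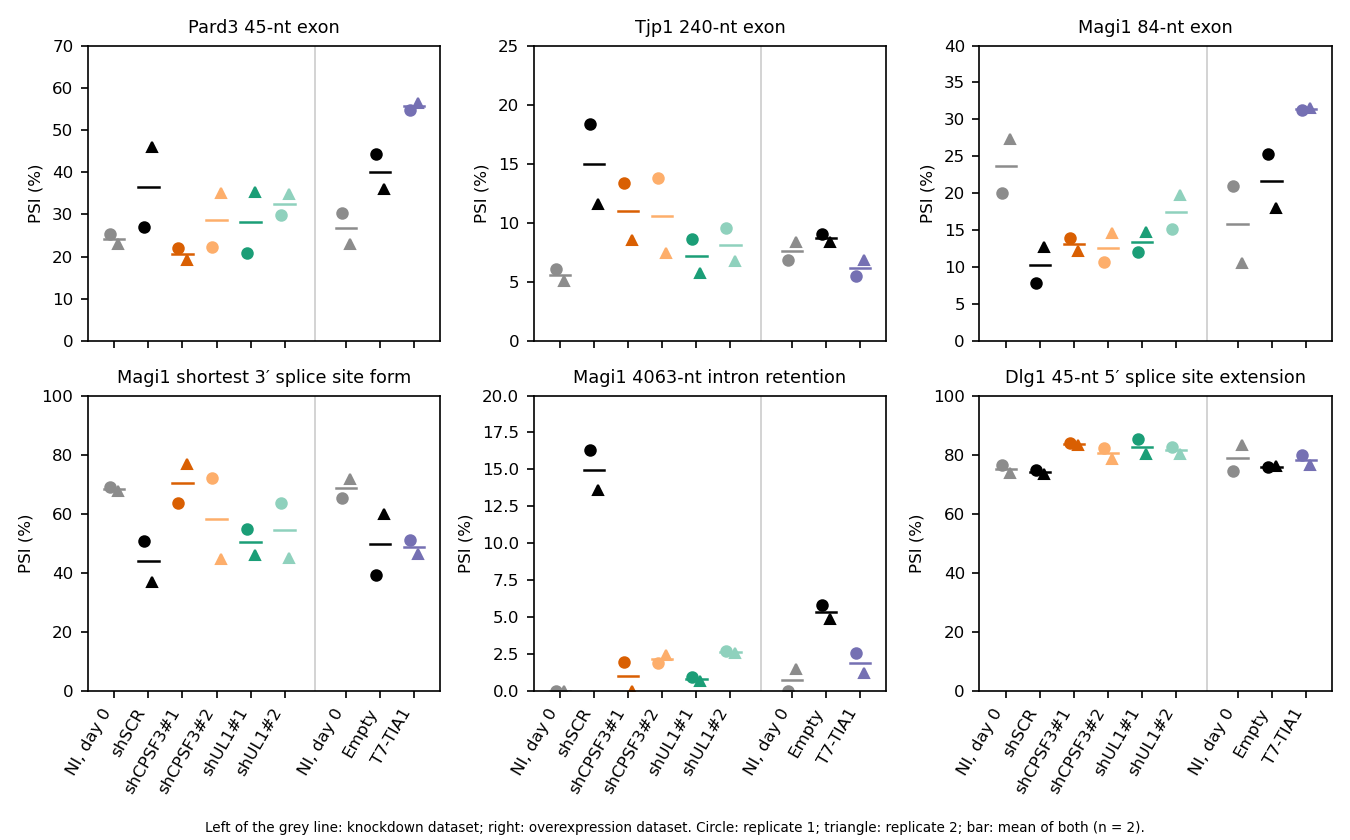
PSI in percent of 6 splicing forms, with 1 point per library (circle, replicate 1; triangle, replicate 2) and bars at the mean of 2; the y axes differ between panels. The *Pard3* exon is highest in T7-TIA1 (54.8 and 56.4), the *Magi1* intron in shSCR (16.3 and 13.6), and the *Dlg1* extension lies between 78.6 and 85.3 in all knockdown libraries of *Cpsf3* and *Hnrnpul1*, above shSCR.

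DLG1, a scaffold of the Scribble polarity module, was lower at day 12 in the overexpression dataset. Its level was 269 and 231 scaled CPM in NI, 157 and 166 in Empty, and 181 and 178 in T7-TIA1. The decrease in Empty was 1.54-fold (log2 fold change −0.63 ± 0.12, adjusted p = 0.00887). The call was lost without Empty replicate 1 (adjusted p = 0.0778) or replicate 2 (0.0506). In the knockdown dataset *Dlg1* was at 249 and 231 in NI and at 244 and 165 in shSCR, which overlapped (−0.25 ± 0.20, adjusted p = 0.333). The knockdown libraries lay between 166 and 208.

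The *Dlg1* 45-nt extension was used more in every knockdown library than in either shSCR library. It was outside the naming rule and was chosen after its values were seen. Its PSI was 74.9 and 73.6 in shSCR, 84.1 and 83.3 in shCPSF3#1, 82.2 and 78.6 in shCPSF3#2, 85.3 and 80.1 in shUL1#1, and 82.6 and 80.3 in shUL1#2. NI stood at 76.6 and 73.7, next to shSCR. In the overexpression dataset it was 74.4 and 83.1 in NI, 75.7 and 76.1 in Empty, and 80.0 and 76.5 in T7-TIA1.

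The ∆PSI was 7.78 for CPSF3 (log2 effect 0.66 ± 0.17, adjusted p = 0.107) and 7.78 for UL1 (0.66 ± 0.17, adjusted p = 0.151). With a replicate block the CPSF3 difference passed (adjusted p = 0.0496). Both differences are taken against the same shSCR libraries. Reads numbered 421 to 762 per library.

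The retained-intron event at chr16:31796966-31805613 begins at the first base of this extension, so that reads across its 5′ edge also belong to the extended exon. It met the ∆PSI criteria for UL1 (11.8 PSI, log2 effect 0.72 ± 0.22, adjusted p = 0.201) and differed by 10.9 PSI for CPSF3 (0.67 ± 0.22, adjusted p = 0.174). Its PSI was 55.3 and 55.0 in shSCR and 58.0 to 72.1 in the 8 knockdown libraries. The next *Dlg1* intron, at chr16:31805735-31812667, had a retention of 0.50 and 0.28 PSI in NI and 1.63 and 1.72 in shSCR (log2 effect 1.84 ± 0.31, adjusted p = 0.0171). It rested on 2 to 15 retained reads. The call was lost without either NI library (adjusted p = 0.0686 and 0.108) or either shSCR library (0.0721 and 0.0574), and with only the groups compared (0.0517).

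The catenins had no event between 10 and 90 PSI, and their called events were all retained introns of *Ctnnb1*. α-Catenin (*Ctnna1*; ENSMUSG00000037815, chr18:35118859-35254779) stood at 655 and 617 scaled CPM in NI and at 462 and 502 in shSCR. The decrease was 1.32-fold (log2 fold change −0.40 ± 0.11, adjusted p = 0.0213). The call was lost without NI replicate 1 (adjusted p = 0.124) or 2 (0.0678), or without shSCR replicate 1 (0.0948). The level was 388 to 436 in the shCPSF3 libraries and 311 to 430 in the shUL1 libraries, all below shSCR. The UL1 difference of −0.36 ± 0.10 did not pass (adjusted p = 0.0531) but did with a replicate block (0.0235). In the overexpression dataset *Ctnna1* was at 641 and 490 in NI and at 510 and 484 in Empty, which overlapped (adjusted p = 0.401). Of its 60 events, 52 were tested in the knockdown dataset and none was called.

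β-Catenin (*Ctnnb1*; ENSMUSG00000006932, chr9:120929216-120960507) kept a narrow range of levels, from 642 to 832 scaled CPM over the 12 knockdown libraries. No comparison of its level passed. It ranged from 686 to 910 in the overexpression dataset.

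Events called in *Ctnnb1* were all retained introns at PSI below 3. The intron at chr9:120955973-120957106 stood at 0.29 and 0.28 PSI in NI, 1.12 and 0.79 in shSCR, 0.18 to 0.42 in the shCPSF3 libraries, and 0.50 to 0.61 in the shUL1 libraries. Both shSCR libraries lay above all others of that dataset. The log2 effect was 1.63 ± 0.30 for shSCR against NI (adjusted p = 0.0246) and −1.67 ± 0.25 for CPSF3 (adjusted p = 0.0233). The first call was lost without either NI library (adjusted p = 0.115 and 0.143) or shSCR replicate 1 (0.113). The second was lost without shSCR replicate 1 (0.118), either shCPSF3#1 library (0.0778 and 0.071), or shCPSF3#2 replicate 1 (0.0682), and with only the groups compared (0.0636). Both were lost without weights (0.0805 and 0.116).

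The *Ctnnb1* intron at chr9:120958653-120959308 moved in opposite directions in the 2 controls. It rose from 0.89 and 0.69 PSI in NI to 2.56 and 2.22 in shSCR (log2 effect 1.59 ± 0.27, adjusted p = 0.0197). In the overexpression dataset it was 1.92 and 2.17 in NI and 1.14 and 0.99 in Empty (−0.95 ± 0.23, adjusted p = 0.207). The 2 NI groups, both of day 0, thus did not overlap. The difference between the 2 day effects was 2.54 ± 0.34 (adjusted p = 0.110 over all events). With only events of at least 10 reads of each form, an alternative chosen after seeing the data, it passed (adjusted p = 0.0419). It rested on 27 to 102 retained reads per library. The call in shSCR was lost without any 1 library of NI (adjusted p = 0.0751 and 0.125) or shSCR (0.0989 and 0.0572), without weights (0.0804), and on the PSI scale (0.0565).

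The third called *Ctnnb1* intron, at chr9:120933639-120950172, fell from 2.07 and 1.34 PSI in shSCR to 0.33 to 0.57 in the shCPSF3 libraries (log2 effect −1.68 ± 0.32, adjusted p = 0.0482). It rested on 1 to 10 retained reads. The call was lost with a replicate block (adjusted p = 0.0512), with 0.5 read added (0.0572), without weights (0.142), on the PSI scale (0.101), with only the groups compared (0.0806), and without any 1 of 10 libraries (0.071 to 0.237), all but the 2 of NI.

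**Figure D4:**
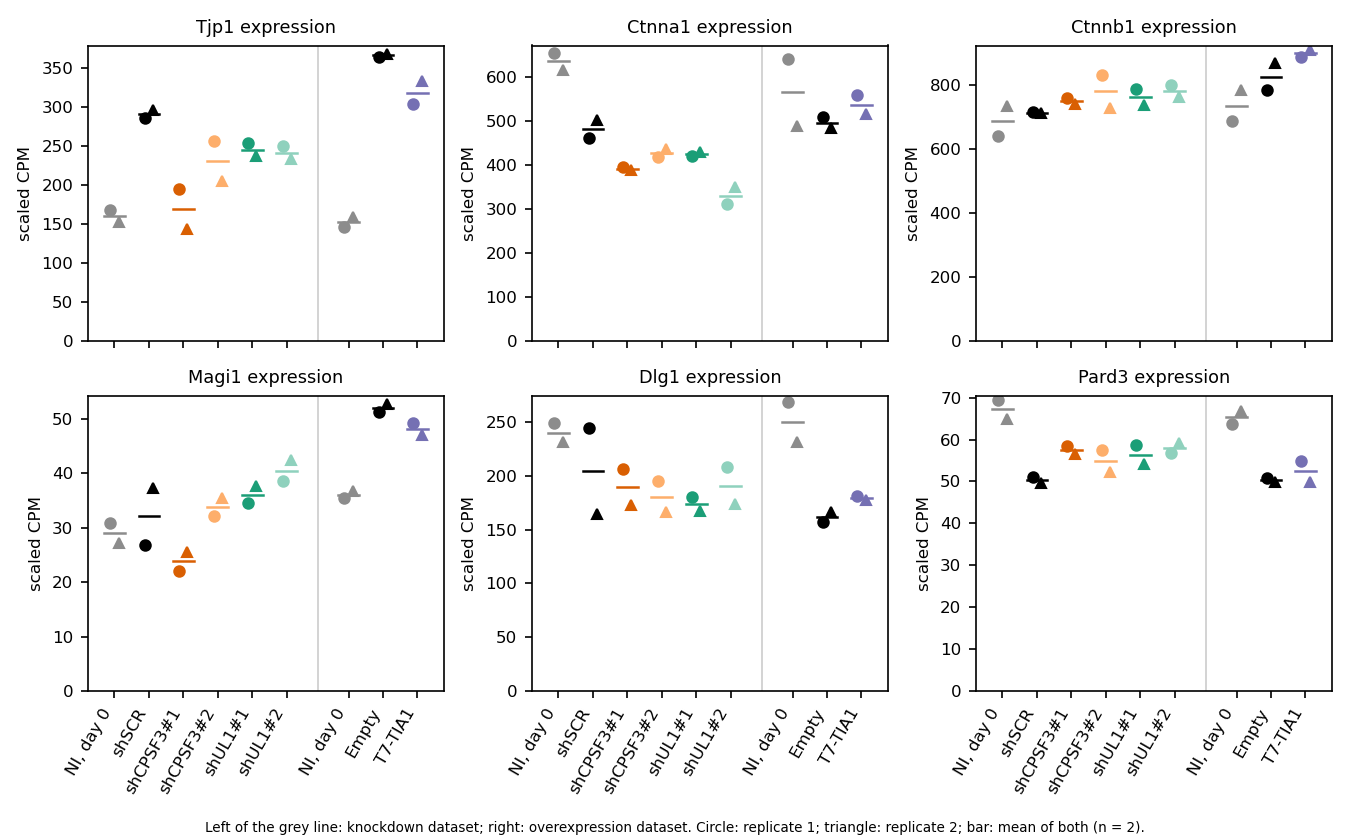
Levels of 6 genes in scaled CPM, with 1 point per library (circle, replicate 1; triangle, replicate 2) and bars at the mean of 2; the grey line separates the datasets and each panel has its own axis from 0. *Tjp1* is higher in shSCR (285 and 296) and Empty (364 and 367) than in NI, *Pard3* is lower in every day 12 group than in NI, and *Ctnnb1* stays within 642 to 910 in all 18 libraries.

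Other genes of the same structures were counted on lists, to be read against the shares of all genes called: 44.5% in shSCR, 46.5% in Empty, 26.1% with CPSF3, and 10.5% with UL1. Of 14 listed adherens junction genes, 3 rose and 5 fell from NI to shSCR, 2 rose and 3 fell with CPSF3, and 2 rose with UL1. In Empty 3 of 13 rose and 6 fell. The median log2 fold change of the list was −0.39 in shSCR and −0.46 in Empty, against 0.00 and 0.01 over all genes. *Plekha7*, an adaptor of adherens junctions in epithelia, rose from NI to shSCR (3.73 ± 0.22, adjusted p = 3.55e-05) and fell with CPSF3 (−1.44 ± 0.19, adjusted p = 0.00291). The mesenchymal cadherins *Cdh2* and *Cdh11* fell in shSCR (−3.51 ± 0.30 and −1.84 ± 0.20, adjusted p = 0.000109 and 0.000297). Both rose with CPSF3 (1.94 ± 0.26 and 2.33 ± 0.17, adjusted p = 0.00305 and 0.000508) and with UL1 (1.72 ± 0.26 and 2.11 ± 0.17, adjusted p = 0.00953 and 0.00297).

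Of 6 listed tight junction genes, 3 rose and 2 fell in shSCR, 4 rose and 1 fell in Empty, 1 rose and 2 fell with CPSF3, and 1 rose and 1 fell with UL1. *Jam2*, an adhesion molecule of tight junctions, was at 11.9 and 13.2 scaled CPM in NI and at 89.6 and 126 in shSCR. It rose in shSCR (log2 fold change 2.99 ± 0.28, adjusted p = 0.000161) and in Empty (2.58 ± 0.17, adjusted p = 0.000982), and fell with CPSF3 (−1.17 ± 0.25, adjusted p = 0.013) and UL1 (−0.94 ± 0.25, adjusted p = 0.0486). With each library scaled to the same sum, the UL1 call of *Jam2* was lost (1 rose and 0 fell on the list). *Jam3*, of the same family, went the other way: it fell in shSCR (−1.58 ± 0.20, adjusted p = 0.000617) and rose with CPSF3 (1.16 ± 0.18, adjusted p = 0.00475) and UL1 (0.97 ± 0.18, adjusted p = 0.0163).

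Of 13 listed polarity genes, 5 rose and 3 fell in shSCR, 2 rose and 5 fell with CPSF3, and 1 rose and 2 fell with UL1. In Empty 2 of 11 rose and 4 fell. *Pard6b*, a partner of PAR3, rose in shSCR (1.99 ± 0.25, adjusted p = 0.000584) and fell with CPSF3 (−1.77 ± 0.22, adjusted p = 0.00231) and UL1 (−1.17 ± 0.22, adjusted p = 0.0177). *Llgl2*, of the Scribble module, did the same (2.52 ± 0.40 in shSCR, −1.86 ± 0.35 with CPSF3, and −1.39 ± 0.35 with UL1; adjusted p = 0.00173, 0.0089, and 0.0432). *Mpdz*, a scaffold with many PDZ domains, went the other way: it fell in shSCR (−1.57 ± 0.18, adjusted p = 0.000362) and rose with CPSF3 (0.77 ± 0.16, adjusted p = 0.0116) and UL1 (0.84 ± 0.16, adjusted p = 0.0175). *Pard6g*, a paralog of *Pard6b*, fell in shSCR (−0.82 ± 0.15, adjusted p = 0.00358). With each library scaled to the same sum, the polarity counts in Empty became 5 up and 3 down, and with CPSF3 1 up and 7 down.

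Of 9 other listed scaffolds of the MAGUK kind, the family of ZO-1, MAGI1, and DLG1, 2 rose and 1 fell in shSCR, 2 rose and 2 fell with CPSF3, and 1 rose and 1 fell with UL1. In Empty 1 of 8 rose and 2 fell. *Card10* rose in shSCR (1.70 ± 0.21, adjusted p = 0.000515) and fell with CPSF3 (−1.13 ± 0.18, adjusted p = 0.00563), whereas *Cask* fell in shSCR (−0.72 ± 0.15, adjusted p = 0.00649) and rose with CPSF3 (1.15 ± 0.13, adjusted p = 0.00194).

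Of 12 listed genes of the β-catenin pathway, 1 fell in shSCR (*Pygo2*, −0.51 ± 0.12, adjusted p = 0.0107), 1 rose with UL1 (*Tcf7l2*, 0.56 ± 0.15, adjusted p = 0.0486), and 1 rose in Empty (*Tcf7l1*, 1.41 ± 0.19, adjusted p = 0.00339). None passed with CPSF3. Scaled to the same sum per library, 2 rose and 0 fell in shSCR, 4 rose in Empty, and 0 passed with UL1, where 0 also passed under median ratios. With T7-TIA1, and between CPSF3 and UL1, no gene of any of these 5 lists passed, against 0% and 0.0424% of all genes. The fibroblast and epithelial marker sums above moved in the same comparisons, and their part in the list counts was not tested.

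The genes whose levels most resembled that of *Afdn* over the 12 knockdown libraries were *Zfp462* (Pearson r = 0.974), *Rpl4* (0.973), *Qars* (0.973), *Rpl5* (0.973), and *Setd6* (0.972). *Zfp462* encodes a zinc finger protein, *Rpl4* and *Rpl5* ribosomal proteins, *Qars* the glutaminyl-tRNA synthetase, and *Setd6* a lysine methyltransferase. The mean level of *Zfp462* was 73.8 scaled CPM in NI, 131 in shSCR, 47.1 in shCPSF3#1, and 71.1 to 85.7 in the other 3 knockdown groups. Among the members, r with *Afdn* was 0.526 for *Tjp1*, 0.519 for *Magi1*, 0.258 for *Ctnna1*, −0.045 for *Dlg1*, −0.437 for *Ctnnb1*, and −0.443 for *Pard3*. The libraries fall into groups, and these values describe the likeness only.

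The exons whose PSI most resembled that of the *Afdn* exon over all 18 libraries, among 107337 exons compared, were a 131-nt exon of *Dgkd* (r = 0.971), a 21-nt exon of *Pcnt* (0.971), a 27-nt exon of *Mark3* (0.966), a 45-nt exon of *Foxm1* (0.965), and a 27-nt exon of *Baz2b* (0.963). All 5 were included more at day 0 than in the day 12 controls, a direction that follows from choosing them by this r. *Mark3* encodes a kinase that phosphorylates polarity and microtubule-associated proteins, and *Pcnt* encodes the centrosome scaffold pericentrin. The mean PSI of the *Pcnt* exon was 100 in both NI groups, 26.1 in shSCR, 39.5 in Empty, 44.9 in T7-TIA1, and 73.6, 45.3, 52.1, and 47.0 in shCPSF3#1, shCPSF3#2, shUL1#1, and shUL1#2.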

How the data were processed

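Stranded polyA RNA-seq libraries of MEFs were analysed. The authors mapped reads to mm10 with *STAR* 2.7.1a and computed CPM with *edgeR* 3.16.5, keeping genes by a minimum level and coefficient of variation. Per the file values, the deposited expression values are a signal: CPM scaled per library, with sums of 937556 to 1104164. The authors quantified splicing with *vast-tools* and deposited PSI in percent with a coverage score and a text of inclusion and exclusion read counts.

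Expression was tested with *limma* 3.58.1 (R 4.3.3; trend) on log2(scaled CPM + 1), separately for each dataset. The test was planned for unscaled CPM. An event was covered with a score of VLOW or better (at least 10 reads) in all libraries of a dataset. Covered events with reads of both forms were tested with robust *limma* on log2((inclusion + 1)/(exclusion + 1)), weighted by 1/(counting variance + 0.1). All tests are two-sided, with p-values adjusted over all genes or events. ∆PSI is the difference of group means. With 2 libraries per group, p-values measure the spread between these libraries. The scripts were tested on simulated data.

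The named events were those called or meeting the ∆PSI criteria, at most 4 per gene by largest ∆PSI, with overlapping events of 1 exon (such as the 3 *Magi1* splice site forms) counted once, and the named genes of a list at most 4 by largest fold change among those called; list genes without a call are not named. One gene that the rule names is not reported here. The members, lists, and tests were chosen with earlier results of these data known. Same-numbered day 12 knockdown libraries deviated together from their group means (r = 0.674 to 0.949 across genes, 0.152 to 0.383 across events), NI and day 12 libraries of that dataset did not (−0.127 to 0.0218 across genes). With overexpression, r across genes was 0.171 to 0.308 between NI and day 12 groups and 0.186 between Empty and T7-TIA1, and 0.0588 to 0.191 across events. A fit with the replicate block was an alternative. Sequences and gene models came from GRCm38 with GENCODE M21. Tables were handled in Python 3.11.15 with pandas 2.3.3 and NumPy 2.4.6, and plots drawn with matplotlib 3.10.9.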

Additional observations from a re-analysis of the deposited data

How the results depend on the processing

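With 2 libraries per group, depth and replicate number limit these results, and the retained introns at low PSI rest on few reads. The planned count tests with edgeR and DESeq2 were not run, because no counts of genes were used. Leaving out 1 library leaves an arm with 1 sample, which is assumed to vary like the other groups. The causes of the changes below were not tested. Except where stated here, numbers of called member genes and events stayed within 1.5 times under the alternatives run.

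Numbers of member genes called ranged over leave-one-out fits from 1 to 4 for shSCR against NI (1 without NI replicate 1), 0 to 2 for CPSF3 (1 without shSCR replicate 1, 0 without replicate 2), 0 to 1 for UL1 (1 without shUL1#1 replicate 2), and 2 to 6 for Empty (2 without either Empty library), and were 0 for T7-TIA1 and for CPSF3 against UL1. With only the groups compared, 0 were called for CPSF3. For UL1, 1 was called with median-ratio scaling and 2 with a replicate block.

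Numbers of member events called ranged from 0 to 5 for shSCR against NI (0 without either NI library, 1 and 3 without shSCR replicates 1 and 2), 0 to 3 for CPSF3 (0 without shSCR replicate 1, shCPSF3#1 replicate 2, or shCPSF3#2 replicate 1, and 1 without shCPSF3#1 replicate 1), and 0 to 2 for UL1 (2 without shSCR replicate 2; 0 without shSCR replicate 1, either shUL1#1 library, or shUL1#2 replicate 1). For Empty the number was 0 without any 1 library. Without weights it was 3 for shSCR, 0 for CPSF3, and 0 for UL1. With only the groups compared it was 1 for CPSF3. With a replicate block it was 10 for shSCR against NI and 2 for UL1. On the PSI scale it was 0 for Empty and 1 for the difference between the day effects, and with at least 10 reads of each form, an alternative chosen after seeing the data, 2 and 1. For the *Afdn* exon that difference ranged over leave-one-out fits from −0.98 (without shSCR replicate 1) to 0.30, a change of sign without shSCR replicate 2 (adjusted p = 0.971).

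By the ∆PSI criteria, leave-one-out numbers were 6 to 8 for shSCR against NI (8 without either shSCR library), 1 to 5 for CPSF3 (4 and 2 without shSCR replicates 1 and 2, 3 without shCPSF3#1 replicate 2, 5 without shCPSF3#2 replicate 2), 1 to 5 for UL1 (1 without shUL1#1 replicate 1, 5 without shSCR replicate 1), 3 to 10 for Empty (10 without NI replicate 1), and 1 to 4 for T7-TIA1 (2 without its replicate 1, 4 without Empty replicate 1). A minimum of 15 PSI gave 2 for shSCR, 0 for CPSF3, 0 for UL1, and 2 for Empty. No minimum gap gave 8 for shSCR, 6 for CPSF3, and 4 for UL1. Coverage of LOW or better gave 3 for shSCR.

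Scaling each library to the same sum moved the median log2 fold change of all genes from 0.00 to 0.13 in shSCR and from 0.01 to 0.19 in Empty. With this scaling *Pard3* (−0.27 in shSCR, −0.19 in Empty) and *Ctnna1* (−0.26 in shSCR) kept their direction, without the shift taken off, and lost their calls (adjusted p = 0.0589, 0.179, and 0.150). The numbers of all genes that rose and fell went from 2122 and 2075 to 2447 and 1540 in shSCR and from 2164 and 2237 to 3143 and 1554 in Empty. Under median ratios they went from 1576 and 882 to 1292 and 1127 for CPSF3 and from 690 and 297 to 550 and 372 for UL1. Of 78 calls on the junction lists, 68 and 74 held under these 2 scalings, with 0 changes of sign. With only the groups compared, the calls of *Afdn* and *Tjp1* with CPSF3 were lost (adjusted p = 0.0574 and 0.125), as were those of *Pard3* and *Ctnna1* in shSCR (0.0651 and 0.106) and *Pard3* in Empty (0.0888), which a replicate block also ended (0.0523). The *Afdn* rise in shSCR passed with the same sum per library (0.0495), median ratios (0.0387), only the groups compared (0.036), and a replicate block (0.0143). A replicate block brought the *Magi1* 84-nt exon (0.0192) and the *Tjp1* exon (0.00717) in shSCR past the threshold. The *Afdn* exon call in shSCR was lost on the PSI scale (0.146) and with at least 10 reads of each form (0.0521), and that in Empty on the PSI scale (0.185).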

Other observations

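Some events of the members lay outside the naming rule and were chosen after their values were seen. The 99-nt exon of *Dlg1* at chr16:31771757-31771855 stood at 59.0 to 62.5 PSI in the shCPSF3 libraries and at 49.3 to 56.0 in the shUL1 libraries, with no overlap. The difference between CPSF3 and UL1 was 7.34 PSI (log2 effect 0.43 ± 0.12, adjusted p = 0.672). The exon was covered by 731 to 1261 reads.

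The *Afdn* intron event that contains the 21-nt exon, at chr17:13846640-13849107, had a mean retention of 17.5 ± 9.88 PSI in NI and 5.48 ± 0.495 in Empty (SD, n = 2; log2 effect −2.07 ± 0.39, adjusted p = 0.150). In the knockdown dataset the means were 17.8 ± 2.49 in NI and 12.7 ± 1.47 in shSCR (adjusted p = 0.518). The exclusion reads of this event nearly matched the skipping reads of the 21-nt exon, so the 2 events are not independent. In the overexpression dataset they were 33 and 38 in NI and 444 and 369 in Empty, against 36, 37, 449, and 374 for the exon. Retained reads were 4 and 12 in NI and 28 and 20 in Empty, so the lower PSI does not mean fewer retained reads.

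Across all tested member events, 74 of 455 had an unadjusted p under 0.05 for shSCR against NI (16.3%), against 20.4% of all events tested. For CPSF3 there were 69 (15.2%, against 16.4%) and for UL1 58 (12.7%, against 13.3%). For Empty against NI there were 33 of 421 (7.84%, against 13.6%).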
